A study of Homo sapiens with 22 samples.

Results

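CTCF binding was set against open chromatin in a single human cell line, HFFc6. The regions came from the pooled CTCF Cut&Tag peak list and the pooled ATAC-seq peak list of that line, kept on chromosomes 1 to 22 and X. They fell into regions with CTCF and ATAC, regions with CTCF alone and regions with ATAC alone, where an overlap of at least 1 bp counted. The CTCF list held 82297 regions and the ATAC list 155746, of 532810 regions in the 4 lists analysed. They stand for 10 of the 22 samples of the series, 2 CTCF Cut&Tag libraries and 8 ATAC-seq libraries.

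The study compared assays of chromosome folding and collected these one-dimensional maps beside them. HFFc6 is a subclone of human foreskin fibroblasts immortalised with telomerase, grown here with no treatment named in the labels, so every library shares that background and a single clone stands for the fibroblast. Cut&Tag tethers the transposase Tn5 to an antibody-bound protein, here CTCF, and ATAC-seq lets free Tn5 cut accessible DNA. The CTCF libraries are titled HFF1, yet labelled HFFc6 as cell line (the name used here), and the ATAC titles carry 2 R labels and 4 T labels of unstated meaning. Neither list gives values per library, so there are no replicates, no spread between samples and no p-values, and the 95% Wilson intervals on shares cover counting error only. Sequencing depth is unknown from peak lists. Both assays cut with Tn5, and how far cutting at open sites adds to the CTCF list was not tested.

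CTCF is a zinc-finger protein that binds a long, asymmetric DNA motif and stops the loop-extruding cohesin ring, so that bound sites anchor chromatin loops and domain borders. Many of its sites are bound in most cell types. Bound CTCF usually sits in a short nucleosome-free stretch that transposase can cut, while promoters and enhancers are open for other reasons, such as the binding of transcription factors and the transcription machinery.

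To show what a CTCF site at an open promoter looks like, 30 bases are printed for the 6 promoters with CTCF and ATAC and the 3 with CTCF alone that had the highest CTCF fold enrichment among those with a match before the gene start. The sequences are RefSeq's, from assembly GRCh38.p14, written 5′ to 3′ on the strand of the gene. Capitals mark a match to a core of the CTCF motif, a pattern of 12 bases of which 8 are fixed, or to its reverse complement where the match lies on the other strand. The first 6 are the promoters with CTCF and ATAC.
POLR2J3-UPK3BL2: tcctccagcCCAACAGGGGGCgatgagccg
HLCS: ccaggcgggCCACGAGAGGGCgcagcgcgg
CCDC59: tgctggcttCCACCAGGGGGCtcgcttcgt
KIF1B: gcccgagggCCACCAGGGGGCgctcgatgt
SLC14A2: tgtcctggcGCCATCTAGTGGgggatccaa
KATNBL1: aagctctagCCACCAGGGGGCactgtggcc
gene ID 648691: cgtctggggCCAGCAGGGGGCactagagtc
LOC124904888: gtcatgactGCCACCTCATGGagttgtctg
LINC00229: tgcccatccGCCTCCTGATGGggtgtggag

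The POLR2J3-UPK3BL2 site lies at chr7:102572632-102572661 on the minus strand, its core ending 57 bases before the gene start. There the CTCF region had a fold enrichment of 22.3 and the ATAC region one of 27.1, each within its own list, and both summits lay 0 bp from the middle of the match. The HLCS site (chr21:36990218-36990247, minus strand) belongs to the gene for the enzyme that attaches biotin to carboxylases. Its CTCF summit lay 50 bp from the match and its ATAC summit 205 bp, at a CTCF fold enrichment of 21.4. The CCDC59 site (chr12:82358880-82358909, minus strand) had a CTCF fold enrichment of 21.1, with the CTCF summit 293 bp and the ATAC summit 157 bp away. The KIF1B site (chr1:10210338-10210367, plus strand), before the gene for a kinesin motor, lay 41 bp from the CTCF summit and 43 bp from the ATAC summit. The urea transporter gene SLC14A2 has its site at chr18:45212905-45212934 on the plus strand, with the core on the opposite strand to the gene, 37 bp from the CTCF summit and 29 bp from the ATAC summit. The KATNBL1 site (chr15:34210183-34210212, minus strand) lay 68 bp from the CTCF summit and 148 bp from the ATAC summit.

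The 3 matches under CTCF alone were before lncRNA genes. The first of them also lay in the stretch searched around the start of the gene PRAME, with the same CTCF fold enrichment. The gene with NCBI gene ID 648691 (chr22:22559290-22559319, plus strand) had a CTCF fold enrichment of 13.4, a summit 38 bp from the match and its nearest ATAC region 16229 bp from the CTCF region. LOC124904888 (chr20:33298581-33298610, minus strand) and LINC00229 (chr22:44625548-44625577, minus strand) had CTCF summits 676 and 764 bp from the match, so their summits do not mark these letters. All of these CTCF regions were also found in a further deposited list whose name reads CTCF and hESC, called the hESC-named CTCF list.

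KIF1B (chr1:10210320-10210569, plus strand) and KATNBL1 (chr15:34210097-34210346, minus strand) are shown over the 250 bases that end at the base before the gene start, since both open promoters hold the same core at different distances from the start. Capitals again mark the core.
KIF1B upstream: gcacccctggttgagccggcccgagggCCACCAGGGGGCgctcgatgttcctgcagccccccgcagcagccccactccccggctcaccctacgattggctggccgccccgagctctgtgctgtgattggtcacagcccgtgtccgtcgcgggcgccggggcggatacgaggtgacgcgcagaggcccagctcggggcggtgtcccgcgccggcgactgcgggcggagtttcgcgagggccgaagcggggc
KATNBL1 upstream: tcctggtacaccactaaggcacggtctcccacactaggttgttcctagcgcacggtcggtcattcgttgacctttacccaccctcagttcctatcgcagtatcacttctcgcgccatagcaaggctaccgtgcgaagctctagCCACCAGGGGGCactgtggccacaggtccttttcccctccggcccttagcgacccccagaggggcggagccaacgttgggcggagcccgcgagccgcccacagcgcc
In KIF1B 211 bases separate the end of the core from the start, and in KATNBL1 95. Both stretches lay outside annotated genes.

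Most CTCF regions of HFFc6 were open. Of the 82297 CTCF regions, 69946 overlapped an ATAC region, 85.0% (84.7 to 85.2%), and 12351 did not. The reverse share was lower. Of the 155746 ATAC regions, 68306 overlapped a CTCF region, 43.9% (43.6 to 44.1%), and 87440 did not. The CTCF list is the shorter one, and the difference between the shares moves with list length. With the same number of regions from each list, the strongest by −log10 q, 68.9% of CTCF regions and 66.8% of ATAC regions overlapped.

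The pairing was almost always one to one. Of 70239 overlapping pairs, 65846 (93.7%) involved no further region on either side. Within these pairs the ATAC region was usually the wider one, in 71.2%, and it held the whole CTCF region in 54.9%, against 17.8% in which CTCF held the whole ATAC region. The median pair had a CTCF region of 751 bp, an ATAC region of 939 bp and 635 bp in common, and the median share of the ATAC region covered by CTCF was 77.5%. Widths in these pairs had a Spearman rho of 0.43 over 65846 pairs, given as a description since regions of a list share their libraries and depth. A single ATAC region covered 2 separate CTCF regions in 1849 cases and 3 in 42, and these ATAC regions were wide, with medians of 1993 and 3082 bp. The opposite case, a CTCF region over 2 ATAC regions, occurred 293 times at a median CTCF width of 1818 bp.

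Regions called in both assays were wider and stronger than those called in 1 assay. CTCF regions with ATAC had a median width of 742 bp (quartiles 494 and 1030 bp), and those without ATAC 474 bp (338 and 691 bp). ATAC regions with CTCF had a median width of 951 bp (673 and 1268 bp), against 544 bp (362 and 798 bp) for ATAC alone. The peak caller's fold enrichment, the authors' ratio of signal over background, is used within a list only. In the CTCF list its median was 6.72 with ATAC (quartiles 4.40 and 9.81) and 3.86 without (3.01 and 5.80). In the ATAC list it was 9.71 with CTCF (6.15 and 13.6) and 4.24 without (2.91 and 6.76). The quartile ranges overlapped in every pair of classes.

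**Figure D1:**
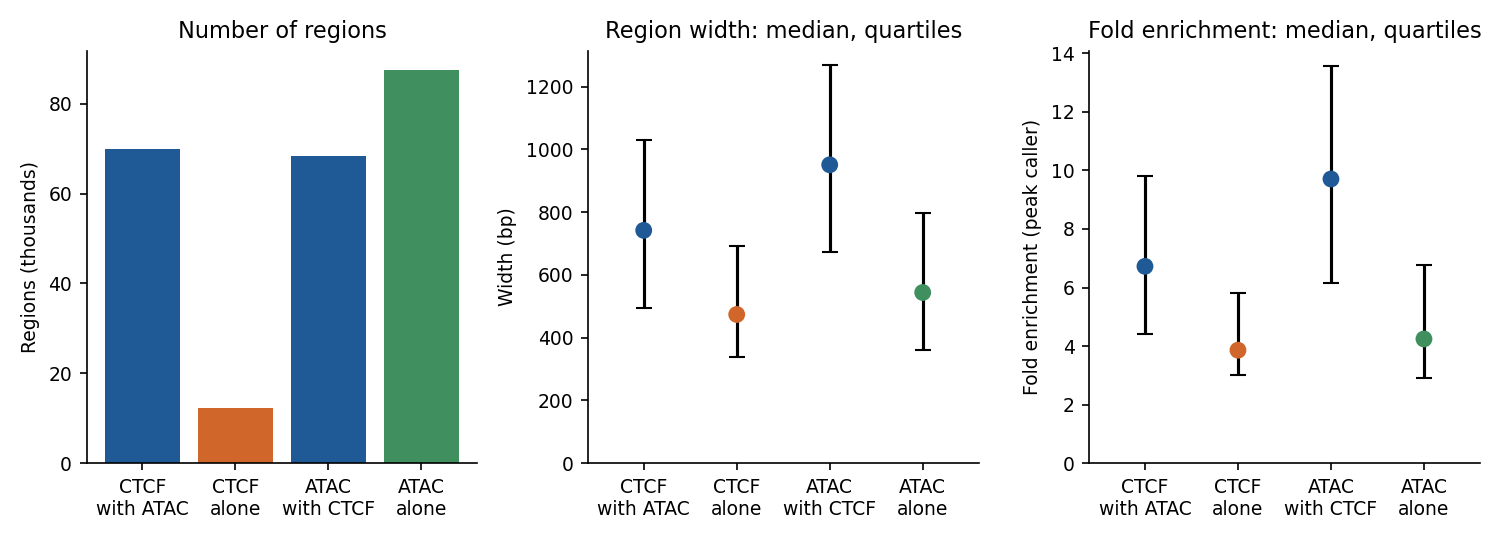
Number, width (bp) and peak-caller fold enrichment of the 4 sets of HFFc6 regions, with points at the median and bars from the lower to the upper quartile. Regions in both assays had medians of 742 and 951 bp, those in 1 assay 474 and 544 bp; fold enrichment may be compared only within a list.

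Weak calls were common among CTCF regions without ATAC. A −log10 q of at least 10 was reached by 40.9% of them and by 74.8% of CTCF regions with ATAC. It was reached by 97.4% of ATAC regions with CTCF and by 75.7% of ATAC alone. Among calls past that limit in both lists, the median CTCF fold enrichment without ATAC was 6.38, and with ATAC 8.20.

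The share that overlapped rose with strength in both lists. Split into deciles of CTCF fold enrichment, 58.9% (57.9 to 60.0%) of the weakest CTCF regions were open and 97.5% (97.1 to 97.8%) of the strongest. The share rose at each step between them, with 84.8% in decile 4 and 93.5% in decile 8. In the ATAC list the range was wider, from 8.79% (8.35 to 9.24%) with CTCF in the weakest decile to 84.5% (83.9 to 85.1%) in the strongest. The strongest open regions of HFFc6 were therefore mostly CTCF regions, and the weakest seldom were. Among CTCF regions with ATAC, CTCF fold enrichment and the highest overlapping ATAC fold enrichment had a Spearman rho of 0.44 over 69946 regions. It was 0.61 near gene starts (n = 15060) and 0.37 away from them (n = 54886). These are descriptions across regions, which share libraries, depth and base composition.

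**Figure D2:**
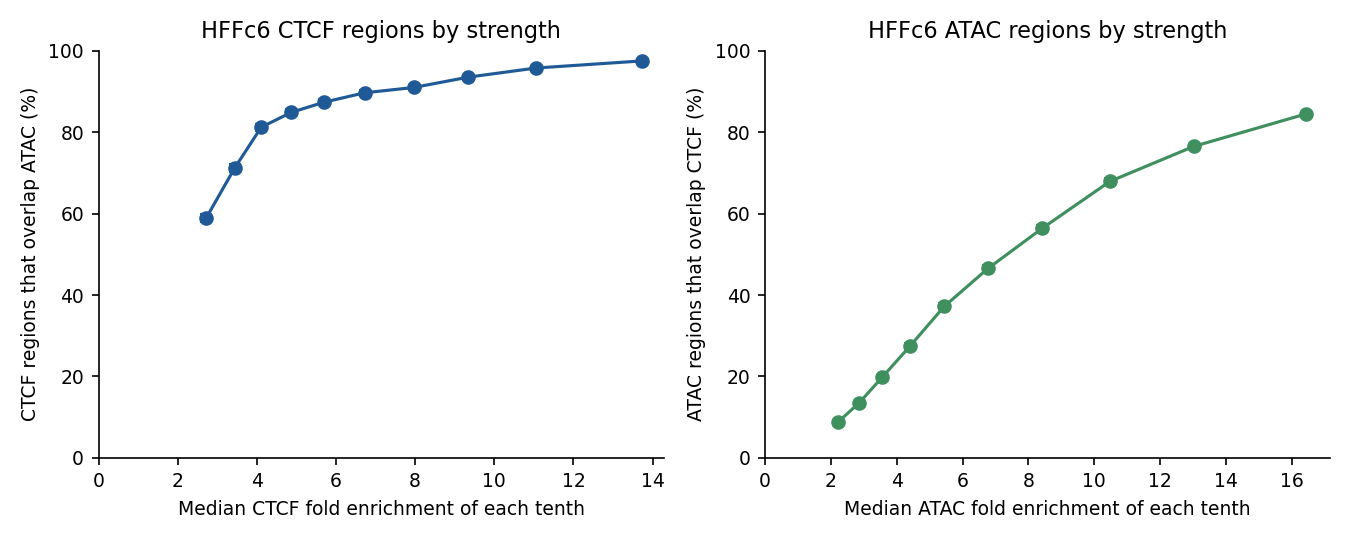
Share of HFFc6 CTCF regions that overlap ATAC (left) and of ATAC regions that overlap CTCF (right), in percent, against the median fold enrichment of each decile of the same list; bars are 95% Wilson intervals. CTCF regions rise from 58.9 to 97.5%, ATAC regions from 8.79 to 84.5%.

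Where both assays called a region, their summits mostly lay within 100 bp of each other. The CTCF summit lay inside the ATAC region in 98.4% of the 69946 CTCF regions with ATAC. The median distance between the CTCF summit and the summit of the ATAC region with the most overlap was 55 bp (quartiles 14 and 129 bp). The summits were at most 10 bp apart in 23.0%, at most 50 bp in 47.6% and at most 100 bp in 69.3%. They were at the same base in 6.46%. The signed offset had a median of 0 bp, and its distribution had a sharp centre with a shoulder on either side. In steps of 21 bp, 16112 regions fell in the central step, 4349 and 4157 in the steps centred at -21 and 21 bp, and 4777 and 4672 in those at -42 and 42 bp.

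**Figure D3:**
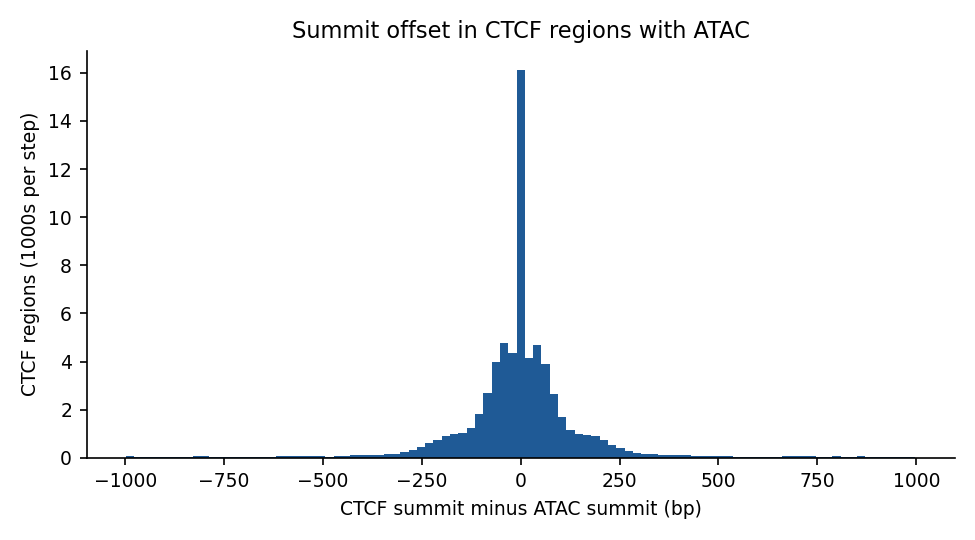
Histogram of the CTCF summit position minus the ATAC summit position (bp), in steps of 21 bp, for CTCF regions with ATAC; the vertical axis counts regions in units of 1000 and offsets beyond the drawn range are left out. The central step holds 16112 regions, and the steps at -42 and 42 bp stand slightly above those at -21 and 21 bp.

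Summits lay closer together at strong CTCF regions and away from promoters. The median distance was 133 bp in the weakest CTCF decile, 55 bp in decile 5 and 37 bp in the strongest. It was 78 bp within 1 kb of a gene start and 49 bp elsewhere. CTCF regions also present in the hESC-named CTCF list had a median of 39 bp away from gene starts, and those absent from it 57 bp. The former were also stronger, with median CTCF fold enrichments of 8.58 and 5.10, and wider, at 876 and 561 bp. How far strength and width account for the distances was not tested. In both of these sets a sizeable share lay within 10 bp, 28.4% and 21.6%.

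Regions called in 1 assay seldom had a near neighbour of the other kind. The median gap from a CTCF region without ATAC to the nearest ATAC region was 4242 bp, and 5.74% of them had one within 500 bp. From an ATAC region without CTCF to the nearest CTCF region the median gap was 11544 bp, and 0.997% had one within 500 bp.

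The 5 regions of highest fold enrichment in each class show how varied their positions are. Whether reads map to a single place at these regions is unknown from peak lists. The strongest CTCF region with ATAC, chr17:43251452-43252268, lay between genes, 20437 bp from the start of CCDC200, with a CTCF fold enrichment of 37.5, an ATAC fold enrichment of 43.6 and 0 bp between the summits. The next, chr19:47941141-47941720 (CTCF fold enrichment 33.2), had its summits 1 bp apart and lay between genes near BSPH1. The rest lay at chr17:53105887-53106381 in MTCO1P40, a pseudogene of a mitochondrial gene, at chr5:70585659-70586302 in the lncRNA gene LOC105379020, and at chr7:143836469-143837631 in the lncRNA gene LOC112267988. Those in MTCO1P40 and LOC105379020 had summits 2 and 3 bp apart and were in neither the hESC-named CTCF list nor the H1 ATAC list, while the last had summits 734 bp apart.

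The strongest CTCF region without ATAC, chr19:47920060-47920590, lay 33977 bp from the start of SULT2A1, a sulfotransferase gene of steroid metabolism, at a fold enrichment of 29.7 and 20764 bp from the nearest ATAC region. It was 1 of 5, and all 5 were in the hESC-named CTCF list. The others were chr17:22521233-22521574 between genes, chr8:7886837-7887549 in a pseudogene near the beta-defensin gene DEFB103A, chr15:82468002-82468548 in the pseudogene CSPG4P10, and chr17:19076804-19077554 between genes near GRAP, with fold enrichments from 22.8 to 26.4. The strongest ATAC region without CTCF, chr13:109424132-109424376, was 245 bp wide with a fold enrichment of 42.0, and lay 362258 bp from the start of IRS2, an adaptor of insulin signalling. Its −log10 q was 9936, against 576 to 787 for the others of these 5. The next were chr9:68250672-68251343 in ZNG1C, chr16:71050253-71050880 in HYDIN, a gene of motile cilia, chr7:143806635-143807166 between genes near CTAGE6, and chr9:61853784-61854803 in the lncRNA gene FAM27C. None of these 5 overlapped the hESC-named CTCF list.

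Promoters carried CTCF and ATAC together far more often than they carried either alone. A region counted as near a gene start when its summit lay within 1 kb of the start of a protein-coding or lncRNA gene. RefSeq promoter windows gave the start where they listed the gene, and otherwise both ends of the gene were used. Near a start lay 21.5% (21.2 to 21.8%) of CTCF regions with ATAC and 21.3% (21.0 to 21.6%) of ATAC regions with CTCF. The share was 6.81% (6.38 to 7.27%) for CTCF alone and 4.99% (4.84 to 5.13%) for ATAC alone. With a window of 500 bp these latter shares were 4.03% and 3.37%, and with 2 kb 12.4% and 8.08%, below the classes with both in each case. Elsewhere inside genes lay 51.2% of CTCF regions with ATAC, 64.2% of CTCF alone and 58.3% of ATAC alone. Between genes lay 27.3%, 29.0% and 36.7%. The median distance to a start was 12087.5 bp for CTCF with ATAC, 13218 bp for CTCF alone and 23635 bp for ATAC alone.

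An open region near a start carried CTCF in 76.9% (76.3 to 77.5%) of 18908 cases, and one away from starts in 39.3% (39.0 to 39.5%) of 136838. The difference was present within each quintile of ATAC fold enrichment. In the weakest quintile 22.8% near starts and 10.3% away from them carried CTCF, in the middle quintile 68.8% and 39.2%, and in the strongest 97.0% and 75.2%. CTCF regions near a start were open in 94.7% of 15901 cases, and those away from starts in 82.7% of 66396.

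Scored by gene, 13200 of 19974 protein-coding genes had CTCF and ATAC at the same start (66.1%). A region counted here when any part of it lay within 1 kb of the start, and the CTCF and ATAC regions need not overlap. At SALL4, for example, the strongest regions of each kind were 1592 and 709 bp wide, with summits 2995 bp apart. A start was listed for 15812 of the 19974 genes. For the others a region at either gene end counted as at the start, and it can lie at the far end. CTCF alone was at 337 (1.69%), ATAC alone at 1674 (8.38%), and 38 (0.19%) had CTCF and ATAC only at different points. The remaining 4725 genes (23.7%) had neither, and 74.7% had an ATAC region. Alone refers to the 1 kb around the start: at 36 of the 337 genes the CTCF region itself ran into an ATAC region farther out, and at 110 of the 1674 the ATAC region ran into a CTCF region. These shares are the background for the gene lists, which are described by counts and were not tested. Genes with neighbouring starts can share a region, and the lists were drawn up with earlier results of these data known.

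The cell type label was held against its markers through ATAC at the gene start. Of 33 genes of the fibroblast matrix and surface, 31 had ATAC there, and of 20 mesenchymal transcription factor genes 19. The share over all protein-coding genes was 74.7%, and 20 of 20 housekeeping genes had ATAC there too. By contrast ATAC was present at 1 of 9 keratinocyte genes, 3 of 12 blood genes, 3 of 7 melanocyte genes, 6 of 10 endothelial genes, 8 of 16 epithelial genes, 6 of 10 neural genes and 6 of 18 pluripotency genes. Defining genes with no CTCF or ATAC at the start included KRT5 and KRT14 of basal keratinocytes, CDH1 of epithelium, CDH5 and VWF of endothelium, PTPRC of blood cells and NANOG of stem cells. Others were open, among them EPCAM, KRT8, KRT18 and ELF3 of epithelium and KDR, TEK, ERG, EMCN, ROBO4 and CLDN5 of endothelium. EPCAM, KRT18 and CLDN5 had no listed start, so they may be open only at the far gene end. An open start is not expression, and how far other cells add to the lists was not tested.

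Fibroblast genes mostly carried both marks at the start, as did most protein-coding genes with ATAC there. In the matrix and surface list 29 of 33 genes had CTCF and ATAC, 0 had CTCF alone, 2 had ATAC alone and 2 had neither. Both marks were thus at 29 of the 31 genes with ATAC, beside 13200 of 14912 over all protein-coding genes. A start was listed for 21 of the 33. COL5A2, COL1A1 and COL3A1 had none, so their calls stand at either gene end. COL5A2, a fibrillar collagen gene, had the strongest CTCF call of the list (fold enrichment 16.4, summit 173 bp from the ATAC summit). ACTA2, smooth muscle actin of contractile fibroblasts, had 11.9 with summits 8 bp apart, and COL1A1, a chain of type I collagen, had 9.93 with summits 249 bp apart. PDGFRA, a growth factor receptor, and ENG, a TGF-beta co-receptor, had summits 0 bp apart. The exceptions with ATAC alone were COL3A1 and POSTN, genes of matrix proteins, at weak ATAC fold enrichments of 2.85 and 2.38. VCAN, a matrix proteoglycan gene, and THY1, a fibroblast surface marker, had neither within 1 kb.

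With each ATAC region given to its closest protein-coding start, the fibroblast list held 361 ATAC regions with CTCF and 328 without, 52.4% with CTCF against 43.9% of all ATAC regions. COL5A1 had 25 with CTCF and 6 without. FN1, fibronectin, had 24 and 29, COL3A1 had 12 and 26, POSTN 14 and 25, and VCAN 7 and 27. The genes thus differed widely in how many of their open regions carried CTCF, from 20.6% at VCAN to 100% at genes with few regions such as TAGLN with 2 and ENG with 3.

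Mesenchymal transcription factor genes had CTCF and ATAC at the start in 17 of 20 cases and ATAC alone in 2. Both marks were thus at 17 of the 19 with ATAC, beside 13200 of 14912 over all protein-coding genes. A start was listed for 11 of the 20, but not for SNAI2, TWIST1 or TBX15, whose calls stand at either gene end. Among the 17 were SNAI2, a repressor of epithelial genes (CTCF fold enrichment 11.3), TWIST1 (8.08) and PRRX1 (7.73). The 2 with ATAC alone were TCF21 and TBX15, transcription factors of mesenchymal development, with ATAC fold enrichments of 7.07 and 6.60, and EBF1 had neither. At TBX15 the ATAC region ran into a CTCF region beyond 1 kb. Nearest to the 20 genes were 260 ATAC regions with CTCF and 345 without, so 43.0% carried CTCF against 43.9% of all ATAC regions. The median number without CTCF was 15.5 per gene against 1 over all protein-coding genes. ZEB2, a repressor of epithelial genes, had 75 ATAC regions without CTCF and 27 with, TCF21 had 28 and 5, and TBX15 had 21 and 5. The reverse was seen at TEAD1, with 19 without and 29 with, RUNX1, with 24 and 30, and FOXF1, with 8 and 17. The assignment to the nearest start depends on how far apart starts lie.

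AP-1 factors and serum response genes had CTCF and ATAC at 11 of 12 starts, and the exception, ATF3, had neither. Over all protein-coding genes both marks were at 66.1%, and at 13200 of the 14912 with ATAC. JUN had a CTCF fold enrichment of 7.32 with summits 21 bp apart, JUND had 5.62 with summits 5 bp apart, and EGR1 had 9.71 with summits 508 bp apart. MYC had 52 ATAC regions with CTCF and 55 without nearest to it. The genes of CTCF and cohesin and their partners had both marks at 20 of 20 starts, as did 20 of 20 housekeeping genes. CTCF's own start had a fold enrichment of 12.8 with summits 5 bp apart, and that of the cohesin subunit gene STAG1 15.0. The cohesin acetyltransferase gene ESCO1, with no listed start, had 17.3 at a gene end. MHC class I and interferon genes had both at 12 of 12, with CTCF fold enrichments from 4.75 at HLA-F to 15.4 at the peptide transporter gene TAP2.

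CTCF alone was the call at 4 of 18 pluripotency genes, genes known from embryonic stem cells, beside 1.69% of all genes. These were DNMT3B, a de novo DNA methyltransferase gene, at a CTCF fold enrichment of 9.39 and a width of 1040 bp, POU5F1, which encodes OCT4, at 4.20, the NODAL ligand gene at 3.48, and LEFTY1, an antagonist of NODAL, at 2.55. The DNMT3B region itself overlapped an ATAC region beyond 1 kb of the start, so it is not among the CTCF regions without ATAC, whose upper quartile was 5.80, whereas those at POU5F1, NODAL and LEFTY1 overlapped none. POU5F1 and LEFTY1 had no listed start, so the CTCF region counted there lies at either gene end. Among these genes only NODAL had both a listed start and a CTCF region that overlapped no ATAC. Another 4 genes, KLF4, LIN28B, LEFTY2 and SALL4, had both, and SOX2 and DPPA4 had ATAC alone within 1 kb, although the SOX2 region ran into a CTCF region farther out. LEFTY2 and SALL4 also had no listed start. LIN28B had a strong CTCF call (14.3) over a narrow, weak ATAC region of 228 bp (2.66), with summits 0 bp apart. DPPA4 had 42 ATAC regions without CTCF nearest to it and 4 with.

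The clustered protocadherins are cell adhesion genes of neurons many of whose promoters are known to hold CTCF sites. Of 53, 31 had CTCF and ATAC at the start, 7 CTCF alone, 8 ATAC alone and 7 neither. Those shares were 58.5%, 13.2%, 15.1% and 13.2%, against 66.1%, 1.69%, 8.38% and 23.7% of all protein-coding genes. CTCF alone was at PCDHA9 (fold enrichment 6.03), PCDHAC1 (4.40), PCDHGB6 (6.76) and at PCDHGA4, PCDHGA5, PCDHGA6 and PCDHGA9, whose values ran from 3.20 to 3.83, and none of the regions at these 7 genes overlapped ATAC farther out. The strongest open CTCF calls were at PCDHGA12 (15.1, summits 0 bp apart), PCDHGB5 (14.1) and PCDHGA3 (13.1). No start was listed for PCDHGA12 and PCDHB11, which were scored at either gene end. In the beta cluster the ATAC-alone members were PCDHB4, PCDHB8 and PCDHB11. Near these genes 44 of 61 ATAC regions carried CTCF, 72.1%. The share was 43.9% over all ATAC regions and 76.9% over those within 1 kb of a gene start.

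Of 39 HOX genes, which set position along the body axis, 21 had both at the start, 2 CTCF alone, 7 ATAC alone and 9 neither. Those shares were 53.8%, 5.13%, 17.9% and 23.1%, against 66.1%, 1.69%, 8.38% and 23.7% of all protein-coding genes. A start was listed for 20 of the 39, but not for HOXC10, HOXA5, HOXB13, HOXB8 or HOXB6, whose calls stand at either gene end. HOXC10 (CTCF fold enrichment 10.1), HOXA5 (9.74) and HOXB13 (9.36) had the strongest CTCF calls with ATAC, and HOXB8 (3.34) had CTCF alone. The other gene scored as CTCF alone, HOXB6, shared its CTCF region (5.63) with HOXB5, where the region overlapped ATAC, beyond 1 kb of HOXB6. HOXC4, HOXC5 and HOXC6 shared 1 CTCF region and 1 ATAC region, so they are not separate observations. Families differed sharply. Both marks were at 79 of 80 ribosomal protein genes, 55 of 63 replication-dependent histone genes and 414 of 477 zinc finger genes, at 6 of 55 keratin genes and at 9 of 390 olfactory receptor genes. At olfactory receptor genes ATAC alone (22) outnumbered both marks (9), and 359 genes had neither.

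**Figure D4:**
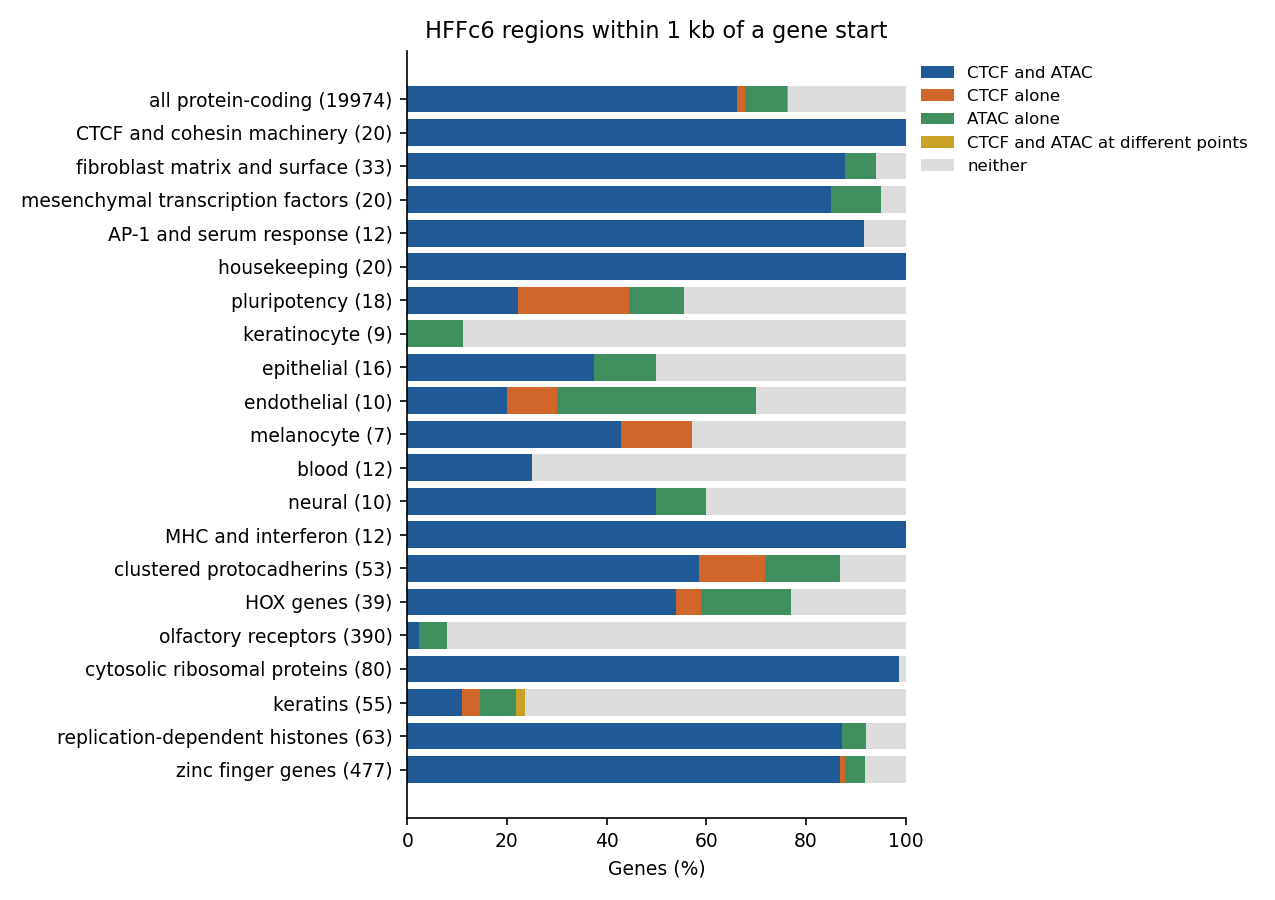
Share of genes (percent) in each list, with the number of genes in brackets, by HFFc6 region within 1 kb of the gene start: CTCF and ATAC, CTCF alone, ATAC alone, CTCF and ATAC at different points, or neither. All protein-coding genes stand at 66.1, 1.69, 8.38, 0.19 and 23.7%, and CTCF alone takes 4 of 18 pluripotency and 7 of 53 protocadherin genes. Where no start is listed, either gene end counts.

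The genes with the most regions of each class were picked after their values were seen and describe extremes. SLITRK1, a synapse gene, had 140 ATAC regions without CTCF and 15 with, DAOA had 130 and 2, and LRRN3 had 130 and 13. The cadherin gene CDH2, expressed in fibroblasts, had 113 and 26. By contrast GSE1 had 15 CTCF regions without ATAC, 17 with ATAC, and 2 ATAC regions without CTCF. MYC and the focal adhesion genes TNS3 and TNS1 were among the genes with the most CTCF regions with ATAC, at 53, 53 and 49.

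Chromosomes differed in both shares. CTCF regions were open least often on chromosomes 19 (73.0%, 71.4 to 74.5%) and 22 (73.0%, 70.9 to 75.1%) and most often on chromosome 6 (89.1%, 88.2 to 90.0%). ATAC regions carried CTCF most often on chromosome 19 (67.7%, 66.1 to 69.2%) and least often on chromosome 4 (34.8%, 33.9 to 35.8%). Over 23 chromosomes, protein-coding genes per 100 ATAC regions had a Spearman rho of 0.83 with the share of ATAC regions that carried CTCF and -0.78 with the share of CTCF regions that were open, as a description with no test. The number of ATAC regions is the denominator of the gene density and of the first share, so these are not separate measures. Chromosome X went against the first relation, with 21.0 genes per 100 ATAC regions and CTCF at 39.3% of its ATAC regions.

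The motif was searched in 34961 RefSeq promoter windows of 300 bases, 250 before to 50 after each gene start, on both strands. The windows belong to 27195 genes. Those of neighbouring or alternative starts can share bases and regions, so they are not separate observations. The core motif was in 2.41% of all windows. It was in 3.19% (2.93 to 3.47%) of 16164 windows with CTCF and ATAC, in 3.14% (1.91 to 5.11%) of 478 with CTCF alone, in 1.68% (1.29 to 2.18%) of 3277 with ATAC alone and in 1.72% (1.53 to 1.94%) of 15042 with neither. The intervals of both CTCF classes overlapped. At 144 of the 478 windows the CTCF region overlapped an ATAC region outside the window. With calls past a −log10 q of 10 the shares in that order were 3.34% (3.07 to 3.64%), 5.25% (3.25 to 8.35%), 1.35% (1.03 to 1.77%) and 1.73% (1.54 to 1.94%). The same letters read backwards, searched separately and free to overlap a core match, were in 0.736% of windows with both, 0.209% with CTCF alone, 0.397% with ATAC alone and 0.253% with neither. Median GC content was 65.7% in windows with both, 62.7% with CTCF alone, 56.3% with ATAC alone and 48.3% with neither, so base composition moved with the classes, and its part in the motif shares was not tested.

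Motif matches were most common under the strongest CTCF calls. In quintiles of CTCF fold enrichment over windows with CTCF, 2.01% (1.59 to 2.55%) held the core in the weakest and 6.01% (5.25 to 6.87%) in the strongest, at a median GC of 65.3% in each. Quintiles 2 to 4 lay close together, at 2.43%, 2.76% and 2.70%. The backwards letters were in 0.571% of windows in the weakest quintile and 1.02% in the strongest. Windows whose CTCF region was also in the hESC-named list held the core in 3.51% (3.22 to 3.82%), and the others in 1.28% (0.906 to 1.82%). Where the CTCF summit itself lay in the window, the core was in 4.24% (3.82 to 4.70%) of 8019 open windows and in 11 of 166 without ATAC, 6.63% (3.74 to 11.5%). The median distance from a match to the CTCF summit was 87 bp over 541 matches, where a site in overlapping windows counts more than once. At matches with both marks the CTCF summit was the closer one in 223 cases, the ATAC summit in 251, and the distances were equal in 52. A match is a description of letters, and most promoter windows with CTCF had none.

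CTCF regions without ATAC in HFFc6 were often CTCF regions of another list. No sample label used here describes the hESC-named CTCF list, and its assay is therefore unknown. It held 57.8% (56.9 to 58.6%) of CTCF regions without ATAC, 49.7% (49.3 to 50.1%) of those with ATAC and 8.81% (8.62 to 9.0%) of ATAC alone. Among calls past a −log10 q of 10 in every list, the first of these shares was 87.4% and the next 51.6%. Within 1 kb of a gene start the order was reversed. There the list held 56.2% (52.9 to 59.6%) of 841 CTCF regions without ATAC and 77.7% (77.1 to 78.4%) of 15060 with ATAC. H1, a human embryonic stem cell line, had ATAC in its own pooled list at 41.6% of CTCF alone, 53.7% of CTCF with ATAC and 18.7% of ATAC alone. When 50% of a region had to be covered, these H1 shares were 18.2%, 27.7% and 7.86%, and the share of ATAC alone in the hESC-named list was 4.71%.

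The CTCF regions without ATAC fell apart by that list. The 7136 regions found in it had a median fold enrichment of 5.13 and a median width of 592 bp, and 64.8% (63.7 to 65.9%) were open in H1. The 5215 not found in it had 3.05 and 378 bp, and 9.93% (9.15 to 10.8%) were open in H1. On chromosome X 78.7% of CTCF regions without ATAC were in the hESC-named list.

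At equal CTCF strength the open regions were the less shared ones. In every quintile of CTCF fold enrichment, regions without ATAC were found in the hESC-named list more often than regions with ATAC. The shares were 29.9% and 20.8% in the weakest quintile, 69.8% and 28.5% in quintile 2, 91.2% and 42.6% in the middle one, 95.8% and 62.3% in quintile 4, and 97.7% and 82.0% in the strongest. Regions near gene starts were not split by strength on their own. Away from gene starts the middle quintile gave 91.1% and 36.5%. With 500 bp around each summit in place of the called widths it gave 79.0% and 38.7%. Calls past a −log10 q of 10 gave 86.0% and 33.4%.

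The share also fell with the strength of the open region. In the middle CTCF quintile it was 91.2% (89.8 to 92.4%) with no ATAC, 82.1% (80.6 to 83.6%) under the weakest quintile of overlapping ATAC fold enrichment, then 55.6%, 35.7% and 25.5%, and 18.2% (16.7 to 19.8%) under the strongest. Away from gene starts the last value was 10.1%. In the strongest CTCF quintile it stayed between 95.4 and 98.1% up to ATAC quintile 3 and was 66.0% (64.8 to 67.1%) in ATAC quintile 5. In the weakest it went from 29.9 to 8.32%. Median CTCF fold enrichment differed little along these rows, from 6.08 to 6.28 in the middle quintile. How far Tn5 cutting at open sites, differences between cell lines or differences between assays contribute was not tested.

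**Figure D5:**
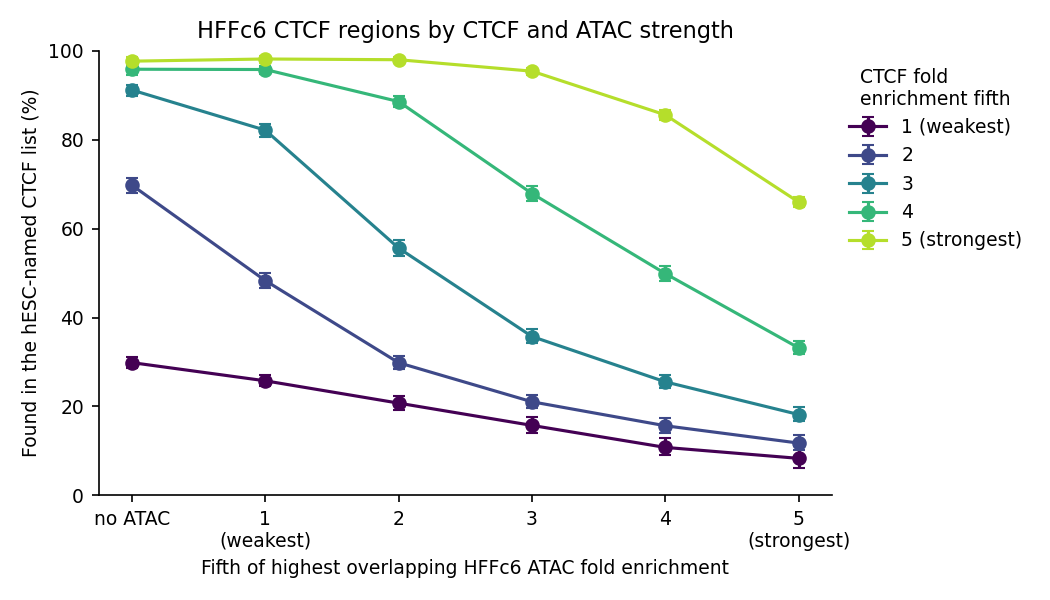
Percentage of CTCF regions of HFFc6 that were also in the hESC-named CTCF list (bars are 95% Wilson intervals) against the quintile of the highest overlapping HFFc6 ATAC fold enrichment, one line per quintile of CTCF fold enrichment. Every line ends lower than it starts, the middle one falling from 91.2% with no ATAC to 18.2% under the strongest ATAC.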

How the data were processed

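CTCF Cut&Tag (2 libraries) and ATAC-seq (8 libraries) of HFFc6 were analysed from 1 pooled peak list each. The authors used BWA, MACS2 and bedtools with build hg38, per the submitters' processing notes. The sources used here give no versions, filters, controls or Tn5 offset. Each deposited peak has a score (not used), a fold enrichment ratio, a −log10 q-value and a summit offset (column 10). Both lists stop at a q of 0.05. They hold no overlapping peaks of their own, and depth is unknown.

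Overlaps, widths, summit distances and 95% Wilson intervals were computed in Python 3.11.15 (numpy 2.4.6, pandas 2.3.3, scipy 1.17.1). Genes and promoter windows are RefSeq's, GRCh38.p14. The windows list 15812 of 19974 protein-coding genes and none on chromosome 8, where gene ends were used. The motif was searched in promoter windows only, since no genome sequence was used here. The members and lists were chosen with earlier results of these data known. The text names the 5 regions of highest fold enrichment per class, members of the gene lists, the promoters of highest CTCF fold enrichment with a core match, and the chromosomes of highest and lowest share. On simulated data, 40.01% planted overlap over the CTCF list was recovered as 40.01%, and 500 of 500 planted motifs were found.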

Additional observations from a re-analysis of the deposited data

Results flagged for a closer look

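Peaks outside chromosomes 1 to 22 and X entered no comparison. The HFFc6 CTCF list held 207 of them and the HFFc6 ATAC list 534. They were set aside by the choice of chromosomes, and no control sample was available to set them against.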

How the results depend on the processing

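No paired analysis was possible because each list is a single pooled call, and leaving out a replicate could not be run for the same reason. Alternatives for the gene starts without a listed start, the backwards motif, the regions away from gene starts, the summit windows applied to the hESC-named list and the quintiles were chosen after seeing the data. Against the intervals of counting error alone, 88 of 107 alternative values moved and 19 did not, and within each list the regions with the other assay stayed wider and higher in median fold enrichment at the q limit and at 50% overlap. What limits the lists is their unknown depth and the absence of replicates.

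The share of CTCF regions with ATAC and of ATAC regions with CTCF was 78.8% and 35.2% when 50% of the region had to be covered, 83.7% and 43.1% with the CTCF summit inside the ATAC region, 90.0% and 38.5% at a −log10 q of at least 10, 79.9% and 42.2% with 500 bp around summits, and 68.9% and 66.8% with equal numbers of regions. In the order CTCF with ATAC, CTCF alone, ATAC with CTCF and ATAC alone, median widths were 858, 697, 997 and 669 bp at a −log10 q of at least 10, and 722, 597, 906 and 605 bp at 50% overlap. In that order median fold enrichments were 8.20, 6.38, 10.6 and 5.52 at the q limit, and 6.62, 4.64, 9.77 and 4.62 at 50% overlap. In that order 25.2%, 6.26%, 25.1% and 5.71% lay near a gene start at the q limit, 22.6%, 7.17%, 22.5% and 6.48% at 50% overlap, 18.2%, 4.03%, 18.6% and 3.37% within 500 bp, and 25.8%, 12.4%, 25.2% and 8.08% within 2 kb. The median summit distance was 48 bp at the q limit, 56 bp at 50% overlap and 55 bp to the nearest ATAC summit.

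With only genes whose start is listed, fewer genes were scored and 218 had CTCF alone. A stricter core, of 14 bases with 10 fixed, was in 0.377% of windows with both, 0.628% with CTCF alone, 0.0915% with ATAC alone and 0.126% with neither. The backwards letters were in 0.736%, 0.209%, 0.397% and 0.253%. At the q limit the core was in 3.34% (3.07 to 3.64%) with both, 5.25% (3.25 to 8.35%) with CTCF alone, 1.35% (1.03 to 1.77%) with ATAC alone and 1.73% (1.54 to 1.94%) with neither, so the intervals of the CTCF classes still overlapped.

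Shares in the hESC-named list, in the same order of the 4 region sets, were 33.3%, 51.9%, 39.4% and 4.71% at 50% overlap, 51.6%, 87.4%, 52.1% and 6.15% at the q limit, 47.9%, 52.7%, 47.6% and 8.59% with 500 bp around summits, and 42.0%, 57.9%, 43.2% and 8.03% away from gene starts. Near gene starts the hESC-named list held 77.7% of CTCF with ATAC and 56.2% of CTCF alone, the reverse order. Shares in H1 ATAC were 27.7%, 18.2%, 30.4% and 7.86% at 50% overlap, 53.6%, 52.7%, 54.2% and 11.4% at the q limit, 52.2%, 43.2%, 52.0% and 17.9% with 500 bp windows, and 44.3%, 40.6%, 45.9% and 17.4% away from starts. In the middle quintile of CTCF fold enrichment, the hESC-named list held 38.7% with ATAC and 79.0% without with 500 bp windows, 33.4% and 86.0% at the q limit, and 36.5% and 91.1% away from starts.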
